A study of Mus musculus with 42 samples.

Results

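The dystrophin-glycoprotein complex was followed through 8 of its genes: Dmd, Dag1, Sgca, Sgcb, Sgcd, Sgce, Sspn and Dtna. They were taken by symbol from the 24466 genes counted in each RNA-seq library, and all 8 were found and passed the filter on low counts that left 14836 genes for testing. RNA came from mouse iPax7 cells, which are muscle precursors derived from embryonic stem cells that carry a doxycycline (Dox) inducible Pax7, and were sorted as PDGFαR+Flk-1-. The +Dox group (3 libraries) was grown with 0.75 µg/ml Dox and so expressed Pax7. The -Dox group (2 libraries) was collected 3 days after Dox was washed out of the same kind of culture. Satellite cells (3 libraries) were muscle stem cells sorted straight from the hind limbs of Pax7-ZsGreen reporter mice, with no Dox and no culture. All iPax7 libraries derive from 1 inducible line, and the labels do not say whether replicates were separate cultures or animals, so p-values measure the spread between these libraries, which may be technical. ATAC-seq peak lists of iPax7, satellite and C2C12 cells (a mouse myoblast line) and ChIP-seq peak lists of iPax7 and C2C12 cells were read at the same genes. The ATAC-seq lists covered iPax7 cells with Dox and 12 h, 24 h and 3 days after its removal. They also covered myotubes from iPax7 or C2C12 cells, grown in 2% horse serum. C2C12 myoblasts were plain (ATAC-seq only), or carried a flag control or Pax7-flag (flag-tagged Pax7).

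The complex spans the muscle cell membrane. Dystrophin, the Dmd product, ties cytoskeletal actin to dystroglycan (Dag1), whose extracellular chain carries a glycan that binds laminin in the basement membrane. The sarcoglycans and sarcospan (Sspn) form a membrane subcomplex that steadies this link, and α-dystrobrevin (Dtna) docks beside dystrophin inside the cell with the syntrophins. Loss of dystrophin or of the Sgca, Sgcb or Sgcd product causes muscular dystrophy. In satellite cells, dystrophin is known to help set cell polarity.

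The RNA libraries held 39010958 to 54674619 counts on genes. Multi-mapped reads made up 23.6% to 30.7% of the deposited counts in satellite libraries and 7.11% to 7.60% in iPax7 libraries. Pax7 itself ran from 11610 to 14130 normalized counts in +Dox, from 221 to 270 in -Dox and from 3926 to 8504 in satellite cells, so the libraries match their labels. The satellite libraries also held transcripts of other cell types. All 4 endothelial markers were present there, with a summed level of 9041 to 14494 normalized counts against 0 to 21.2 in iPax7 libraries. The 4 mesenchymal markers summed to 41066 to 62138 against 2305 to 9745, and the 4 glial markers to 1901 to 3223 against 0.923 to 91.9. Mesenchymal Ly6a overlapped between groups, at 852 to 4725 in satellite cells, 2647 to 9643 in +Dox and 1388 to 1447 in -Dox. The 4 smooth muscle or pericyte markers gave 15563 to 35847 against 3166 to 54132, and they differed. Rgs5 was 9683 to 18483 in satellite cells against 0.911 to 45.0 in iPax7 cells. Acta2 was highest in -Dox (53844 to 53987), with 3707 to 14637 in satellite cells and 3125 to 6981 in +Dox. The 4 blood markers gave 619 to 2110 against 157 to 464, with Hba-a1 and Hbb-b1 at 0 in all libraries. The 6 myofibre markers summed to 5749 to 12325 in satellite cells, 3049 to 3159 in +Dox and 1359280 to 1433700 in -Dox. The part of these other cells in the satellite results below was not tested.

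The members did not move as a block. On Dox withdrawal Dmd and Dag1 rose, 2 of 8 members, where 4.66% of all genes tested rose. None of the members fell in edgeR (3.04% of all genes fell), nor at an unadjusted p under 0.05 or in DESeq2, which gave 0 each, and 6 did not pass the test, with 7.7% of genes called in either direction. The libraries of the 2 conditions did not overlap for 6 of the 8 members, against 45.3% of all genes. The median member log2 fold change was 1.04, and that of all genes was -0.0049. Satellite cells had 3 members higher (Dmd, Dag1, Sgca) and 2 lower (Sgcd, Dtna) than +Dox cells, where 44.9% of all genes were called, 25.1% higher and 19.8% lower. Against -Dox cells 2 members were higher (Dmd, Dag1) and 3 lower (Sgcd, Sspn, Dtna), where 39% of all genes were called, 20.9% higher and 18.1% lower. The shares of genes with no overlap between libraries were 56.5% and 64.3% in these comparisons, and 6 and 8 members showed none. In bulk RNA, fewer cells expressing a gene and less RNA per cell cannot be told apart.

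**Figure D1:**
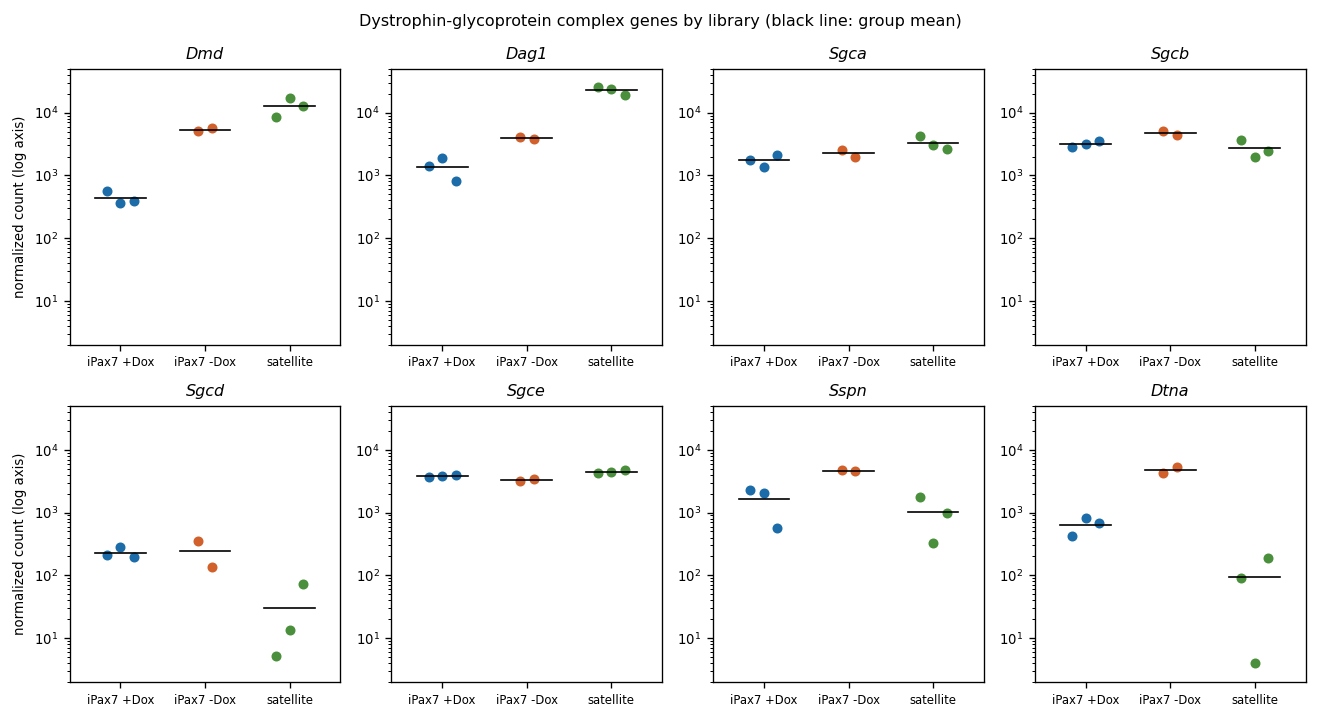
Normalized counts (log axis) of the 8 genes in each RNA-seq library, with 1 panel per gene, points for libraries and a black line for each group mean. Dmd and Dag1 climb from +Dox through -Dox to satellite cells, Sgce is nearly level, and Dtna is highest in -Dox and lowest in satellite cells.

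Dmd, the actin-binding core of the complex, changed the most of the members on Dox withdrawal. It lay at X:80194209-82451480 (NCBIM37, plus strand), 2257 kb long. Its normalized counts were 569, 363 and 393 in +Dox, 5054 and 5633 in -Dox, and 8499, 17180 and 12689 in satellite cells. The 3 groups did not overlap. The log2 fold change on withdrawal was 3.60 (SE 0.353), a 12.1-fold rise (edgeR quasi-likelihood test, adjusted p = 0.000347). Satellite cells exceeded +Dox cells by 4.86 (SE 0.359, 28.9-fold, edgeR adjusted p = 1.77e-05). They exceeded -Dox cells by 1.26 (SE 0.355, 2.39-fold, edgeR adjusted p = 0.0201). This last call was lost without -Dox replicate 1 (adjusted p = 0.141) or -Dox replicate 2 (adjusted p = 0.112).

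The gene counts sum all Dmd transcripts, long and short. The annotation gave protein-coding starts at 80194242, where the longest transcripts begin, at 80872600, and at 82293752 near the 3′ end, where the short non-muscle forms begin. The RefSeq promoter windows (250 bases before to 50 after a start, GRCm38.p6) for the long and the short transcripts are shown because peaks differ between those ends of the gene. RefSeq starts are not always those of the annotation: the first window holds the start at 80194242, and the second ends just before the start at 82293752. Both were placed on NCBIM37 by exact match, at chrX:80193959-80194258 and chrX:82293384-82293683, plus strand. Capitals mark GGGCGG (either strand), the core of the Sp1 site, and the CArG box, the site of serum response factor.
Dmd long-transcript promoter: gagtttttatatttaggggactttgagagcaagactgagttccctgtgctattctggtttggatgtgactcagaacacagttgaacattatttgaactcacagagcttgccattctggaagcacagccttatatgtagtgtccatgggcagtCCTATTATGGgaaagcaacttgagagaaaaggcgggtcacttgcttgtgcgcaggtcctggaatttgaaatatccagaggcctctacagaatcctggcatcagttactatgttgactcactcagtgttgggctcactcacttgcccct
Dmd short-transcript promoter: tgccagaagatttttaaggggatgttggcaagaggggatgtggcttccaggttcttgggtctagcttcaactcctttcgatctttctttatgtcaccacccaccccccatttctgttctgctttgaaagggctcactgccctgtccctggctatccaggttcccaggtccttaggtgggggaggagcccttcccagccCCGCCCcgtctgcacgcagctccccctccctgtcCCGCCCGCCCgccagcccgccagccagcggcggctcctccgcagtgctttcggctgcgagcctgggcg
The long-transcript window held 1 CArG box, a motif found in 1.63% of 32851 RefSeq promoters, and no GGGCGG. The short-transcript window held 3 GGGCGG matches, a motif found in 35.7% of promoters, and no CArG box. Their GC content was 45.7% and 62.7%.

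Dag1, which encodes both chains of dystroglycan, lay at 9:108108286-108166255 (minus strand). Its normalized counts were 1403, 1923 and 801 in +Dox, 4113 and 3780 in -Dox, and 26022, 23941 and 18804 in satellite cells. The groups did not overlap, and +Dox replicate 3 was the lowest of all libraries. The rise on withdrawal was 1.52 on the log2 scale (SE 0.348, 2.87-fold, edgeR adjusted p = 0.0289). It missed the threshold without +Dox replicate 1 (adjusted p = 0.0831), -Dox replicate 1 (0.176) or -Dox replicate 2 (0.124). The satellite level was 16.7-fold that of +Dox (log2 4.06, SE 0.357, edgeR adjusted p = 4.51e-05) and 5.81-fold that of -Dox (log2 2.54, SE 0.391, adjusted p = 0.00102). Both satellite calls held in each alternative fit. The first RefSeq promoter window of Dag1 (chr9:108166240-108166539, minus strand), shown for contrast with the long-transcript start of Dmd, held 3 GGGCGG matches (capitals) and was 69.7% GC.
Dag1 promoter: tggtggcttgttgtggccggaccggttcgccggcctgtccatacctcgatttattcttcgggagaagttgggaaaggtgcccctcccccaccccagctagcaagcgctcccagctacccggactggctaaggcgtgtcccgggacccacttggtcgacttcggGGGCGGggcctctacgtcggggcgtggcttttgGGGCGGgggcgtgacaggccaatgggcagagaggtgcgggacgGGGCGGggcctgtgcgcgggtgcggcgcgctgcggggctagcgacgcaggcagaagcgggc

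**Figure D2:**
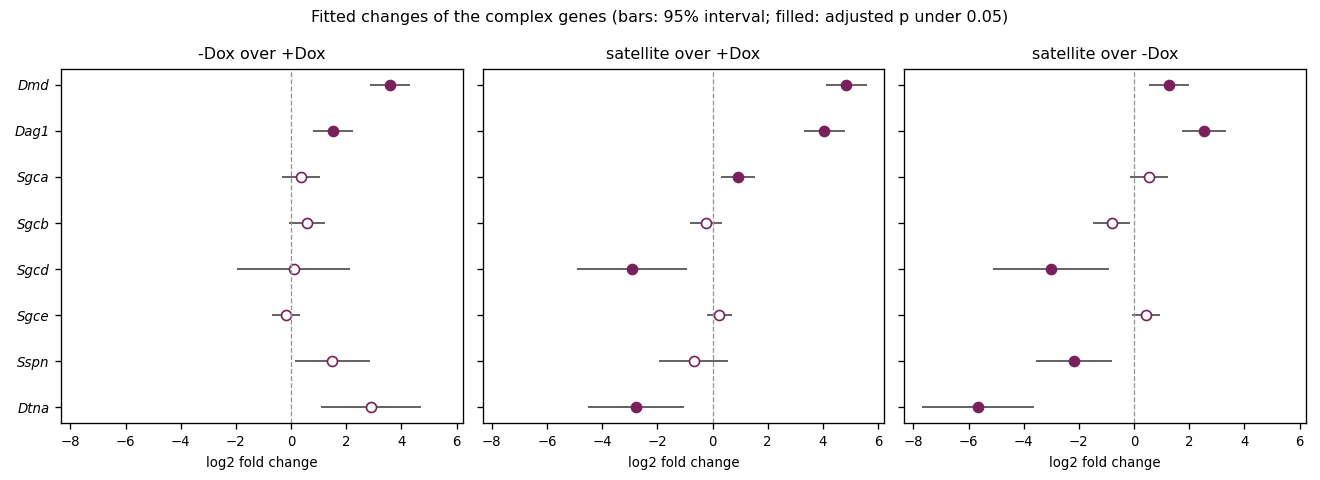
Fitted log2 fold changes of the 8 genes in the 3 comparisons, with bars for the 95% interval and filled points for an adjusted p under 0.05. Dmd and Dag1 lie to the right of 0 in every panel, and Dtna moves from 2.90 on withdrawal to -5.67 between satellite and -Dox cells.

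The sarcoglycans differed from one another. Sgca encodes α-sarcoglycan, a form largely restricted to striated muscle (11:94824105-94837641, minus strand, overlapping Hils1 on the other strand). It had 1749, 1372 and 2141 normalized counts in +Dox, 2570 and 1974 in -Dox, and 4286, 3007 and 2632 in satellite cells. Satellite libraries were above every iPax7 library, by a narrow margin over -Dox replicate 1. The log2 change was 0.37 (SE 0.331) on withdrawal, where the groups overlapped (edgeR adjusted p = 0.599). It was 0.92 (SE 0.301) between satellite and +Dox cells (1.89-fold, edgeR adjusted p = 0.0330) and 0.54 (SE 0.338) between satellite and -Dox cells (adjusted p = 0.224). The +Dox call was lost in the fit of the 2 groups alone (adjusted p = 0.0611) and without +Dox replicate 1 (0.0986), +Dox replicate 2 (0.144), -Dox replicate 1 (0.0553), -Dox replicate 2 (0.0644) or satellite replicate 1 (0.0772).

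Sgce encodes ε-sarcoglycan, the broadly expressed relative of α-sarcoglycan (6:4624350-4697204, minus strand). It was the steadiest member, with 3633, 3770 and 3930 normalized counts in +Dox, 3236 and 3373 in -Dox, and 4225, 4403 and 4848 in satellite cells. The 3 groups did not overlap, yet they lay close together. The log2 changes were -0.19 on withdrawal (95% interval -0.66 to 0.27), 0.25 for satellite over +Dox and 0.44 for satellite over -Dox, with edgeR adjusted p of 0.737, 0.365 and 0.166.

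Sgcb encodes β-sarcoglycan, the partner that the other sarcoglycans assemble on (5:74023988-74038983, minus strand). Its normalized counts were 2794, 3145 and 3583 in +Dox, 5014 and 4472 in -Dox, and 3691, 1962 and 2423 in satellite cells. The -Dox libraries were above all others. Satellite replicate 1 lay above and the other satellite libraries below the +Dox range, so these groups overlapped (log2 -0.24, SE 0.286, edgeR adjusted p = 0.527). The log2 change was 0.58 (SE 0.316) on withdrawal and -0.82 (SE 0.316) for satellite over -Dox, and neither passed (edgeR adjusted p = 0.336 and 0.0654). Without satellite replicate 1 the latter was -1.11 and passed (adjusted p = 0.0113).

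Sgcd encodes δ-sarcoglycan (11:46709755-47802471, minus strand). It had the lowest counts of the 4 sarcoglycan members in iPax7 cells, with 215, 278 and 199 normalized counts in +Dox and 358 and 135 in -Dox. Satellite libraries held 5.27, 13.4 and 72.5, from raw counts of 4, 10 and 55, so precision there was limited by counting. Every satellite library was below every iPax7 library. The log2 fold change was 0.09 (SE 1.03) on withdrawal (edgeR adjusted p = 1). Satellite cells were lower by -2.92 than +Dox (SE 1.002, 7.57-fold lower, edgeR adjusted p = 0.0390) and by -3.01 than -Dox (SE 1.06, 8.08-fold lower, adjusted p = 0.0474). The +Dox call was lost in 7 of 15 alternatives, among them each of the 3 fits without a +Dox replicate (adjusted p = 0.0680, 0.0871 and 0.0653) and those without -Dox replicate 1 (0.0565), satellite replicate 1 (0.0614) or satellite replicate 2 (0.0965). The -Dox call was lost in 11 of 15, among them the fits without any 1 library other than satellite replicate 3 (adjusted p from 0.0624 to 0.267). The sizes moved too, to log2 -4.61 against +Dox and -4.70 against -Dox without satellite replicate 3, and against -Dox to -2.14 without -Dox replicate 1 and -3.61 without -Dox replicate 2.

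Sspn encodes sarcospan, the small membrane-spanning protein bound to the sarcoglycans (6:145880161-145913743, plus strand, overlapping the predicted gene Gm15705). Its normalized counts were 2332, 2047 and 572 in +Dox, 4731 and 4617 in -Dox, and 1760, 326 and 998 in satellite cells. The -Dox libraries were the highest, and +Dox replicate 3 fell inside the satellite range. The withdrawal change of 1.50 (SE 0.683) did not pass (edgeR adjusted p = 0.241). Satellite cells were 4.55-fold lower than -Dox cells (log2 -2.18, SE 0.690, edgeR adjusted p = 0.0319). Between satellite and +Dox cells the log2 difference was -0.68 (SE 0.623, adjusted p = 0.399). The -Dox call was lost without -Dox replicate 1 (adjusted p = 0.103), -Dox replicate 2 (0.0869), satellite replicate 2 (0.0572) or satellite replicate 3 (0.0816), and its log2 value was -2.82 without satellite replicate 1.

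Dtna, which encodes α-dystrobrevin (18:23573916-23818215, plus strand), had the widest range of the members. Its normalized counts were 418, 830 and 681 in +Dox, 4237 and 5373 in -Dox, and 89.5, 4.02 and 189 in satellite cells. The 3 groups did not overlap. Satellite replicate 2, with 3 raw counts (4.02 normalized counts), sat at the floor, which was set at 3 raw counts. Dtna was 51.0-fold lower in satellite than in -Dox cells by the fit (log2 -5.67, SE 1.02, edgeR adjusted p = 0.00225), a call that held in every alternative. The log2 value was -6.67 without satellite replicate 3 and ran from -5.84 to -5.11 without any other 1 library. The satellite level was also below +Dox (log2 -2.77, SE 0.874, edgeR adjusted p = 0.0280). That call was lost without +Dox replicate 2 (0.0630), +Dox replicate 3 (0.0610) or satellite replicate 1 (0.0729), and in the fit of those 2 groups alone (adjusted p = 0.0526), and the log2 value was -3.77 without satellite replicate 3. On withdrawal the change was 2.90 (SE 0.912), which missed the threshold (edgeR adjusted p = 0.0922). It passed without satellite replicate 2 (adjusted p = 0.00528), in the fit of the 2 iPax7 groups alone (0.00180) and in DESeq2 (0.0139).

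Levels per length were compared in RPKM, counts per kilobase of exon scaled to 1000000 counts on genes. In +Dox cells the order was Sgce (29.7 ± 0.61, SD, n = 3), Sgca (24.4 ± 4.41), Sgcb (20.5 ± 1.44), Sspn (8.19 ± 4.91), Dag1 (7.41 ± 3.22), Dtna (1.65 ± 0.53), Sgcd (0.681 ± 0.14) and Dmd (0.453 ± 0.13). Libraries of Sgca and Sgcb, of Sspn and Dag1, and of Sgcd and Dmd overlapped, and the other neighbours did not. In -Dox cells (n = 2) Sgca (27.3 ± 4.54) and Sgcb (26.5 ± 1.62) overlapped at the top, followed by Sgce (22.4 ± 1.09), Sspn (19.6 ± 0.046), Dag1 (18.1 ± 0.72), Dtna (10.7 ± 1.99), Dmd (4.69 ± 0.45) and Sgcd (0.620 ± 0.39). Satellite cells (n = 3) put Dag1 first by a wide margin, at 94.0 ± 20.5, ahead of Sgca (35.8 ± 11.2) and Sgce (27 ± 0.28), which overlapped. Sgcb (13.5 ± 5.02) and Dmd (9.96 ± 3.44) overlapped next, then came Sspn (3.85 ± 2.83), and last Dtna (0.180 ± 0.17) and Sgcd (0.0651 ± 0.076), which overlapped. Thus Dag1 stood at rank 5 per length in both iPax7 groups and at rank 1 in satellite cells. The Dmd level is per 23.8 kb of all its exons, although short transcripts cover only some of them.

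**Figure D3:**
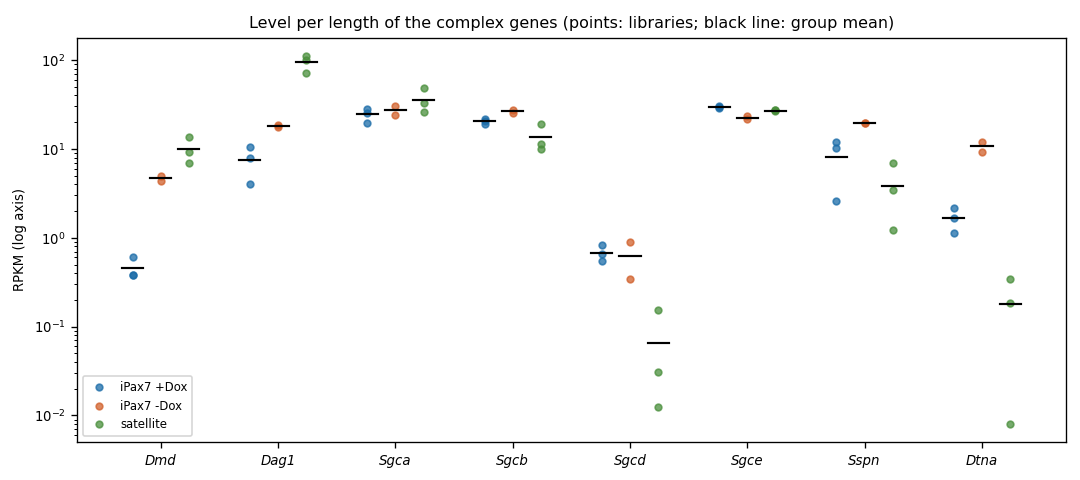
RPKM (log axis) of the 8 genes in the 3 groups, with points for libraries and black lines for group means. Dag1 is near 94.0 in satellite cells, while Sgcd and Dtna lie below 1 there.

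Each of 3 members was set against its paralog within the same library, a ratio that library scaling does not touch. Utrn encodes utrophin, the dystrophin relative that can stand in for it, and had log2 changes of 0.13, 0.35 and 0.22 on withdrawal, in satellite over +Dox and in satellite over -Dox (edgeR adjusted p = 0.929, 0.416 and 0.666). The log2 ratio of Dmd to Utrn counts was -4.17 ± 0.48 in +Dox (SD, n = 3), -0.75 ± 0.14 in -Dox (n = 2) and 0.28 ± 0.26 in satellite cells (n = 3). The libraries of the 3 groups did not overlap, and each pairwise difference had the smallest p these group sizes allow (exact permutation test, two-sided, p = 0.1, Benjamini-Hochberg adjusted 0.15 over 9 tests). Dtnb encodes β-dystrobrevin, the non-muscle form, and changed by -1.27 on withdrawal (edgeR adjusted p = 0.248). The log2 Dtna to Dtnb ratio was 1.06 ± 0.62, 5.25 ± 0.043 and -2.72 ± 2.63 in the same order of groups, with p = 0.1 for each pair (exact permutation test). The log2 ratio of Sgca to Sgce went from -1.13 ± 0.30 in +Dox to -0.55 ± 0.31 in -Dox and -0.47 ± 0.46 in satellite cells (exact permutation p = 0.2, 0.2 and 1). Sgcz, encoding ζ-sarcoglycan, had no count in any library.

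**Figure D4:**
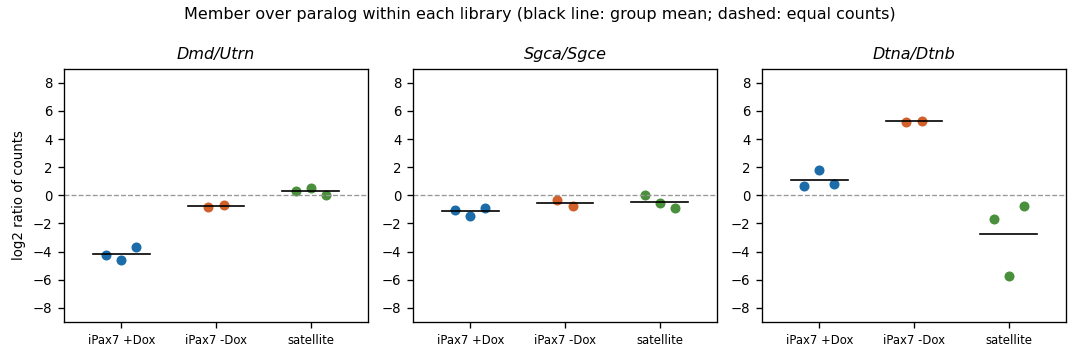
Log2 ratio of a member's count to its paralog's count in each library, with a black line for the group mean and a dashed line for equal counts. Dmd gains on Utrn from +Dox to satellite cells, and Dtna is above Dtnb in every iPax7 library and below it in every satellite library.

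Accessible chromatin at these genes was read from ATAC-seq peaks within 1000 bases of a protein-coding start, with 1 pooled peak list per condition and so no replicate error. All 8 members had such a peak in +Dox cells, where 63% of 22372 genes did, and all 8 also at 12 h (61.2%), 24 h (64.2%) and 3 days (65.4%) after Dox removal. The same held in satellite cells (58.5% of genes) and in myotubes from iPax7 cells (61.6%) or from C2C12 cells (54%). These shares are of all protein-coding genes, expressed or not, whereas all 8 members had passed the RNA filter on low counts. Under other windows or limits on the peaks, 6 to 8 members had a peak in satellite cells. In C2C12 myoblasts 5 of 8 members had one (44.9% of genes), and Dmd, Sgca and Sgce lacked it. Dmd also lacked a peak in C2C12 myoblasts with a flag control (7 of 8 members, 55.6% of genes), and Dmd and Sgca in those with Pax7-flag (6 of 8, 56.7%).

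At the long-transcript start of Dmd, whose sequence is given above, fold enrichment of the ATAC peak was 6.46 in +Dox, 6.54 at 12 h, 11.2 at 24 h and 11.7 at 3 days. It was 13.7 in iPax7 myotubes, 8.20 in satellite cells and 10.6 in C2C12 myotubes. Among all genes of the same list Dmd stood at the 46.8 percentile in +Dox, at 52.4, 52.6 and 53.8 at the 3 times after removal and at 57.3 in satellite cells, so satellite cells ranked above 3 days by percentile and below it by fold enrichment. At the short-transcript start the values were 4.05, 2.92, 5.92 and 5.64 over the same times, 5.15 in iPax7 myotubes and 4.30 in satellite cells, with no peak in C2C12 myotubes. The long-transcript start thus had the larger value in each condition with a peak. The start at 80872600 had no peak in any condition. Peaks of H3K4me3, the mark of active or poised starts, lay at both outer starts with and without Dox. These lists were long, with 94067 peaks in +Dox and 214172 in -Dox, and 60.2% and 65.9% of genes had such a peak. H3K27me3, the Polycomb mark, had a peak at the short-transcript start in +Dox but not -Dox, and H3K4me1 had one at both starts, again in +Dox but not -Dox. No H3K27Ac peak, the mark of active elements, was listed at any Dmd start in either condition, where 47.9% (+Dox) and 45.1% (-Dox) of genes had one.

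**Figure D5:**
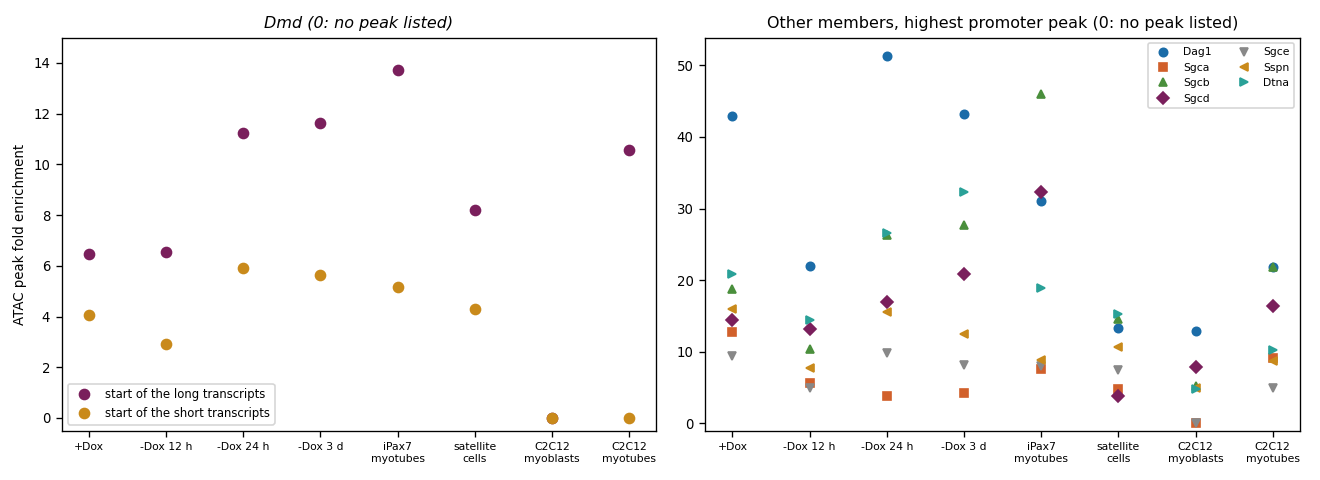
Fold enrichment of ATAC-seq peaks near starts of Dmd (left) and the highest promoter value of the other 7 members (right) by condition, 1 pooled peak list each, with 0 where no peak was listed. The long-transcript start of Dmd goes from 6.46 in +Dox to 11.7 after 3 days, and Dag1 falls from 43.2 after 3 days to 13.3 in satellite cells.

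At the other 7 members, +Dox, 3 days without Dox and satellite cells were ordered by the highest promoter ATAC fold enrichment. This order was that of mean RNA for 3 (Sgcb, Sgcd and Dtna) and another for 4. The scale differed between lists, with a median over genes with a peak of 22.3, 21.5 and 13.9. By percentile among all genes, Sgcb (64.2, 73.8 and 72.2) and Dtna (66.9, 77.9 and 73.3) no longer matched. By the same measure Sgce (51.5, 48.4 and 55.2) did match, and Sgcd matched either way. The highest Dag1 peak had a fold enrichment of 42.9 in +Dox, 43.2 after 3 days without Dox and 13.3 in satellite cells, where its RNA was highest. Values per condition depend on the depth of each library, and Dag1 stood at the 85.1, 85.1 and 69.4 percentile of all genes. Dtna had 20.9, 32.4 and 15.2, so its promoter stayed accessible in satellite cells, at the 73.3 percentile, where its RNA was lowest. The highest Sgca peaks lay at its inner starts, 94834777 and 94834803, at 12.8 in +Dox, 4.25 after 3 days and 4.88 in satellite cells, and the outermost start at 94837641 had none in any condition. Sgcd had a start at 47193024 with 14.4 in +Dox, 20.9 after 3 days and 3.91 in satellite cells. Another Sgcd start, at 47168875, had 12.1 in +Dox, between 2.34 and 3.21 at the 3 times after removal, and none in satellite cells. It also had a peak of 10.5 in C2C12 myoblasts with Pax7-flag and none with the flag control. Sgcb had an H3K27me3 peak in its promoter window with and without Dox, although no such peak lay inside the gene. Sgcd had one in +Dox only, so with Dmd 3 of 8 members had that mark in +Dox (21.7% of genes) and 1 in -Dox (19.9%). These H3K27me3 counts depended on the window, since none of the peaks covered a start itself.

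Pax7 binding sites (2455 in +Dox cells) were assigned to the nearest start, and 8.10% of protein-coding genes received at least 1. Sites in the gene or within 50 kb were found for 5 of 8 members and for 13.5% of 22372 protein-coding genes, with no allowance for gene length. Dmd, Dag1 and Sgcb had none, as 86.5% of genes did.

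Sgcd received 1 intronic Pax7 site, at 11:47202186-47202680, 9.41 kb from a start. It had an ATAC peak in +Dox cells and in no iPax7 list after Dox removal, nor in iPax7 myotubes or satellite cells, and no histone peak in iPax7 cells with or without Dox. The C2C12 lists were not read at the Pax7 sites. Its central 300 bases (NCBIM37, chr11:47202284-47202583, plus strand) are shown, with capitals for TAAT (either strand), the core of homeodomain sites.
Sgcd intronic Pax7 site: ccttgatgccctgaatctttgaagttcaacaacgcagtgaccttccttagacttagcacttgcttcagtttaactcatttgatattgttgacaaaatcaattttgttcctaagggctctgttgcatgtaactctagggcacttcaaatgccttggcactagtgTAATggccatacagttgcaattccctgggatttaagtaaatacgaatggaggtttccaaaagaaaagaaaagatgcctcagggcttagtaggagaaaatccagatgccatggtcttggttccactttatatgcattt
It held 1 TAAT, as 82.8% of all Pax7 sites hold at least 1 in the same window.

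RefSeq promoter windows were listed for 6 members, 9 windows in all. CAGCTG and CACCTG, the common E-boxes of myogenic factors (16.3% and 20.2% of all promoters), were in none of the 9. CATTCC, the MCAT motif of TEAD factors (14.7% of promoters), was in 3, both Sspn windows and that of Sgcd. GGGCGG was in 5, which belong to Dmd, Dag1, Sgcb and Sgcd. The 2 Dag1 windows overlap, and the second holds all the GGGCGG matches of the first.

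Dtna received 4 Pax7 sites, all intronic, at 18:23603795-23604259, 18:23612572-23613082, 18:23728652-23729109 and 18:23735861-23736484. The second of these was accessible in every iPax7 and satellite list and carried H3K27Ac with and without Dox. The first lost its ATAC peak at 12 h, 24 h and 3 days but had one in iPax7 myotubes and satellite cells, the third had one in +Dox, at 24 h, at 3 days and in iPax7 myotubes, and the fourth had no ATAC peak in any list of iPax7 or satellite cells. Sspn received 1, at 6:145947055-145947715, outside the gene and accessible in all these lists. It lay 45.4 kb from the nearest of the 3 Sspn starts, the innermost at 145901949. A site at 6:4697882-4698976 overlapped the promoter window of Sgce, although its nearest start was that of Peg10. The longer homeodomain motif TAATTA was in the central 300 bases of 9.69% of all Pax7 sites. It was in the central 300 bases of none of the 9 sites in or within 50 kb of members, and their flanks were not searched.

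Other genes of the pathway were described by fixed lists. Of 11 further subunits and paralogs 9 were tested, and on withdrawal 1 rose, Cav3 (caveolin of the muscle membrane, log2 7.87, SE 1.47, edgeR adjusted p = 0.0111). The list's median was 0.13. Of all genes tested 4.66% rose on withdrawal. In satellite cells 25.1% of all genes were higher than in +Dox, and 20.9% were higher and 18.1% lower than in -Dox. Of the 9 list genes 3 were higher in satellite cells than in +Dox (median 0.90), and 3 were higher and 1 lower than in -Dox (median 1.19). The higher ones were Drp2, a dystrophin relative best known from Schwann cells (log2 5.17 and 5.21, edgeR adjusted p = 9.33e-06 and 3.75e-05), Sntb2, a syntrophin (3.64 and 2.58, adjusted p = 0.000681 and 0.00843), and Nos1, neuronal nitric oxide synthase. Drp2 had 21278, 17954 and 17304 normalized counts in the satellite libraries and 392 to 657 in iPax7 cells. Both Drp2 and the summed glial markers were higher in every satellite library than in any iPax7 library, and the part of glial cells was not tested. Nos1 had no count in any iPax7 library and raw counts of 376, 110 and 2 in satellite cells, so 1 library was below the floor of 3 raw counts. The lower one against -Dox was Cav3 (log2 -7.49, edgeR adjusted p = 0.00342).

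Of 13 cytoskeletal linkers and membrane repair genes, 4 rose on withdrawal and none fell in edgeR, DESeq2 or at an unadjusted p under 0.05 (0 each, median 0.91), led by Trim72, a membrane repair protein (log2 5.82, SE 0.72, edgeR adjusted p = 0.00150), Dysf, the repair protein dysferlin (3.81, SE 0.62, adjusted p = 0.00564), and Des, the muscle intermediate filament desmin (3.63, SE 0.28, adjusted p = 8.51e-05). Of all genes tested 4.66% rose on withdrawal and 3.04% fell. In satellite cells 8 of the 13 were higher than in +Dox (median 2.12), where 25.1% of all genes were higher. Among the 8 were Flnc, the muscle filamin, at 4.72, Des at 4.50 and Ank2, an ankyrin that places dystrophin at the membrane, at 4.31 (edgeR adjusted p = 3.42e-05, 8.84e-06 and 0.000585). Against -Dox 6 of the 13 were higher and 2 lower (median 0.87), where 20.9% of all genes were higher and 18.1% lower. The higher ones were led by Tln2 (talin, 4.50), Flnc (2.65) and Ank2 (2.45), and the lower ones were Trim72 (-3.78) and Dysf (-2.83).

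Of 11 matrix ligands tested none passed on withdrawal in edgeR (median -0.032), and 1, Lama2, was lower in DESeq2, with 1 lower at an unadjusted p under 0.05. On withdrawal 7.7% of all genes tested passed. In satellite cells 8 of the 11 were higher and 1 lower than in +Dox (median 1.09), and 6 higher than in -Dox (median 1.49). Of all genes tested 25.1% were higher and 19.8% lower than in +Dox, and 20.9% were higher than in -Dox. Lama4 and Lamb2, laminin chains, were higher by 4.25 and 2.83 over +Dox (edgeR adjusted p = 0.00605 and 0.000279), and Egflam, the dystroglycan ligand pikachurin, had no count in iPax7 cells and 85, 109 and 419 raw counts in satellite cells. Lamb1 was lower than in +Dox, with overlapping libraries (-1.33, adjusted p = 0.0333). The summed endothelial and mesenchymal markers were also higher in every satellite library than in any iPax7 library, and their part was not tested. Of 15 genes that help build the laminin-binding glycan of dystroglycan, none passed on withdrawal in edgeR (median -0.18), DESeq2 or at an unadjusted p under 0.05 (0 each). In satellite cells B4gat1 (log2 -1.44), Pomgnt1 (-1.14) and Dpm2 (-1.0) were lower than in +Dox, with edgeR adjusted p of 0.0143, 0.0453 and 0.00888 (list median -0.70). These 3 of 15 are a share near that of all genes tested, of which 19.8% were lower. Of these 15, Dpm2 alone passed against -Dox (-1.07, edgeR adjusted p = 0.0114, list median -0.62), where 39% of all genes passed. The muscle differentiation genes, given as context, moved on withdrawal in 9 of 10 cases, with Pax7 (-5.71) and Myf5 (-3.64) down and Myog (5.40) and Ckm (10.1) among 7 up.

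Likeness across the 8 libraries was described with Pearson's r of log2(normalized count + 1), over 11359 genes with a mean of at least 100. The libraries share their groups, so r mostly restates the group means. Dmd was most like Nckap5, Akap13 and Pdlim5 (r = 0.995, 0.989 and 0.986), and Dag1 like Nrbp2, Rcan1 and Rora (0.990, 0.989 and 0.989). Sgca was nearest to P2rx6, Il34 and Cd53 (0.959, 0.954 and 0.950), Sgcb to Mex3d, Gng2 and Ftsj1 (0.972, 0.968 and 0.966), and Sgcd to Bid, Col4a6 and Eya3 (0.984, 0.983 and 0.982). Sgce was nearest to Ctdp1, Ddhd1 and Papd7 (0.992, 0.987 and 0.985), Sspn to Erbb3, Serac1 and Ctns (0.967, 0.963 and 0.957), and Dtna to Fam122b, Mvk and Akr1e1 (0.994, 0.991 and 0.987). Among the members themselves, r was 0.91 for Dmd and Dag1, 0.84 for Sgcb and Dtna and 0.81 for Sspn and Dtna, and -0.82 both for Dag1 and Sgcd and for Sgca and Sgcd.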

How the data were processed

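RNA-seq values are raw counts per gene symbol that the authors deposited, 1 file per replicate. The labels name TopHat2 2.0, HTSeq 0.6, Trimmomatic 0.32 and edgeR without roles, and the annotation and strand setting are not given in the sources used here. Rows that name no gene (9.19% to 32.4% of a file) were left out. Counts were fitted in edgeR 4.0.16 (R 4.3.3) with TMM, filterByExpr, 1 mean per group over all 8 libraries, the quasi-likelihood test and Benjamini-Hochberg adjustment over 14836 genes. A call is an adjusted p under 0.05. Normalized counts are counts over the TMM effective size, times the geometric mean size. The SE is the log2 fold change over the square root of F. RPKM used exon unions of GENCODE M1.

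ATAC peaks were called by the authors with MACS2 2.0.10 on merged replicates (Bowtie2 2.2.6, mm9). Their deposited columns are fold enrichment, a ratio over background, and −log10 p and q, which were not used here. ChIP peaks came from Qeseq on merged replicates, and the Pax7 list from sites in at least 2 +Dox replicates and no -Dox replicate, per the study's methods.

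Motifs were searched on both strands. The members and lists were chosen with earlier results of these data known, and the CArG and TAAT motifs after the sequences were seen. Named list genes are the 3 called genes with the largest change per direction and a mean of at least 100 in the higher group, the paralogs, and 4 context genes. Nearest genes are the 3 highest r. Alternatives used RLE, DESeq2 1.42.0, other filters, fewer groups, a replicate block, a 2-fold limit, left-out replicates, a ratio pseudocount of 1 in place of 0.5, other promoter windows and ATAC peaks above the median fold enrichment. The fit was tested on simulated data. Some genes of the planned lists and 1 planned ratio are not reported here, and the list counts, medians and adjusted ratio p-values leave them out.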

Additional observations from a re-analysis of the deposited data

How the results depend on the processing

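With 3, 2 and 3 libraries, calls near the threshold moved easily. Of 360 member log2 fold changes under alternative fits, 310 kept direction and side of the threshold, 40 lost a call, 7 gained one, and 3, all of Sgcd on withdrawal, changed sign without a call. The called changes of Dmd on withdrawal, of Dmd and Dag1 over +Dox, and of Dag1 and Dtna against -Dox were kept in every alternative fit. The RLE and DESeq2 scalings moved the median of all genes by at most 0.060 (log2). The cause of the changes below was not tested.

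Replicate numbers stand only in file names. Deviations of same-numbered libraries from their group means had r from -0.040 to 0.027 over 7 pairs. This cannot decide whether the samples are paired. Most of these pairs joined iPax7 to satellite cells, and the deviations of 2 -Dox libraries are equal and opposite by construction. The reported fit used no block. With the replicate block and only the 2 groups compared, 5 members were called higher on withdrawal, with 2023 genes higher and 1994 lower, and no member was called lower in satellite than in +Dox cells. With the replicate block over all libraries, 266 genes were lower on withdrawal and 1 member was lower in satellite than in -Dox cells. Satellite against -Dox, the log2 value of Dtna was -6.35 and that of Sgcd -4.04 with the replicate block over all libraries, and -7.44 and -4.68 with the block and only the 2 groups. Satellite against +Dox, Sgcd was at -3.65 and -3.80 in those fits, and Dtna at -3.42 in the latter. On withdrawal the reported fit called 691 genes higher and 451 lower, DESeq2 1194 and 1102, and the fit of the 2 groups alone 1128 and 1027. That fit called 1 member lower in satellite than in +Dox cells.

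Leaving out 1 library in turn gave 1 to 3 members higher on withdrawal, with 363 to 823 genes higher and 125 to 621 lower. It gave 0 to 2 members lower for satellite over +Dox. For satellite over -Dox it gave 1 to 2 members higher and 1 to 3 lower, with 1571 to 3352 genes higher and 1633 to 2969 lower. The log2 ratio difference of Sgca to Sgce for satellite over -Dox (0.083) ran from -0.16 to 0.30, and was -0.14 without -Dox replicate 2 and -0.16 without satellite replicate 1. Where a group kept 1 library, it was assumed to vary like the others.

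For H3K27me3, peaks that cover the start itself were at 0 members with and without Dox, and a window of 500 bases gave 0 without Dox. For H3K4me1 without Dox, peaks covering the start were at 4 members.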

Other observations

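Several peaks at member genes in C2C12 cells, which have no RNA-seq values here, add to the picture of the iPax7 cells. H3K27Ac was listed at the promoters of 7 of 8 members both with the flag control (53.6% of all genes) and with Pax7-flag (54.7%), and Dmd was the member without it in each. H3K4me3 was at 6 of 8 members with the flag control (45.1% of genes) and at 7 of 8 with Pax7-flag (37.9%), and Dmd lacked it in both lists, whereas in iPax7 cells all 8 members carried it (60.2% of genes with Dox and 65.9% without). The H3K4me3 lists differed in size, with 19828 (flag control), 19401 (Pax7-flag), 94067 (iPax7 +Dox) and 214172 (iPax7 -Dox) peaks. The part of list size in this contrast was not tested. H3K4me1 was at 6 of 8 in both C2C12 lists, with Dmd and Sgce without it (49.7% and 63.5% of genes). H3K27me3 was at 1 member with the flag control, Dmd (18.9% of genes), and at 2 with Pax7-flag, Sgca and Sgcb (21.5%). These counts depended on the window: no H3K27me3 peak covered a member start in either list, a wider window gave 2 members with the flag control, and H3K4me1 peaks with the flag control covered a start of 3 members. Each list is 1 pooled file, so these differences have no replicate error.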
